A study of Mus musculus with 12 samples.

Results

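The D-type cyclins (Ccnd1, Ccnd2 and Ccnd3) and the inhibitors of cyclin-dependent kinases of the INK4 family (Cdkn2a, Cdkn2b, Cdkn2c and Cdkn2d) and the CIP/KIP family (Cdkn1a, Cdkn1b and Cdkn1c) were followed in cultured mouse glioblastoma and neural stem cells. Members were the probe sets to which the array's annotation gives exactly 1 gene symbol, that of one of these 10 genes. This gave 10 probe sets of 9 genes, among 21780 probe sets of 19934 genes in all. Cdkn1b had 2 probe sets, called 1 and 2 here, and the other 8 genes had 1 each. Cdkn1a had none, because its 1 probe set also carries another gene's symbol, and its values are not reported.

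D cyclins bind the kinases CDK4 and CDK6 and start the phosphorylation of the retinoblastoma protein, which frees E2F factors to switch on genes for DNA replication. INK4 proteins bind CDK4 and CDK6 and keep the D cyclins off, while CIP/KIP proteins act on cyclin-bound kinases, chiefly those of cyclins E and A. In the developing brain Ccnd2 and Ccnd1 are the D cyclins of dividing progenitors, and loss of CDKN2A and CDKN2B is a common lesion of human glioblastoma.

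The study compared tumour cells of 3 origins, each with 3 cultures and 1 array per culture. The mGC1_GFAP cultures came from G/tv-a mice, in which the Gfap promoter drives the virus receptor tv-a, the mGC2_NES cultures from N/tv-a mice, with the Nes promoter, and the mGC3_CNP cultures from C/tv-a mice, with the Cnp promoter. In all 3 groups the tumours arose in the adult brain after injection of DF-1 chicken cells that release RCAS-PDGFB-HA, a virus carrying the growth factor PDGFB. The neural stem cell (NSC) cultures, also 3, were grown from the subventricular zone of adult mice, 1 culture from each of the 3 lines. By the labels all 12 cultures, NSC included, are of Arf-/- genotype (Arf is one of the products of Cdkn2a), were untreated and grew in the same medium. Each tumour group comes from 1 mouse line, so origin and line cannot be told apart. The cultures of a group are described as independent, but not whether they came from different animals, and the p-values below cover the spread among those cultures, which may be technical in part.

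Values are log2 summaries from RMA, with array medians of 7.60 to 7.66. The highest reading of 4 spermatid transcripts taken as absent was 7.42, and no member had a group mean at or below it. Cdkn2b was at or below it on 1 array. All 12 cultures had high readings of Sox2 and Olig2, at group means of 12.15 to 12.51 and 12.20 to 12.44. The precursor marker Sox10 averaged 12.61 to 12.65 in the tumour groups and 8.12 in NSC cultures, and the stem cell marker Egfr 6.32 to 6.36 in the tumour groups and 11.76 in NSC cultures. Of the marker lists, 4 of 6 oligodendrocyte precursor genes rose in tumour against NSC cultures and 0 fell, 4 of 6 neural stem cell and 5 of 5 astrocyte genes fell and 0 rose. The part of this shift in the members' differences was not tested. Group means of the 6 microglia markers were at most 7.55 and those of the 5 endothelial markers at most 7.43. Of the pericyte and fibroblast markers, Col1a1 (8.22 to 8.36) and Col1a2 (7.76 to 7.96) were above 7.42 in every group, as was the neuron marker Snap25 (8.01 to 8.83). The neuron marker Syt1 ranged from 7.19 to 8.44, and the other pericyte and neuron markers were at most 7.51. In these lists 1 microglia gene fell and 1 endothelial gene rose, 1 of 5 pericyte genes rose and 1 fell, and 1 of 5 neuron genes fell. Over all probe sets 17.6% rose and 19.2% fell in tumour against NSC cultures.

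In tumour against NSC cultures Ccnd2 fell 4.25-fold, Ccnd3 rose 2.15-fold, and Ccnd1 gave no call. Among inhibitors Cdkn2b fell, and Cdkn2a and Cdkn2d rose, while no call was made for Cdkn2c, Cdkn1b or Cdkn1c. In limma, 5 of the 10 probe sets were called at an adjusted p under 0.05, against 36.7% of all probe sets. Of these, 3 were higher in tumour cultures, against 17.6% of all probe sets, and 2 were lower, against 19.2%. The median difference was -0.02 over the 10 and 0.01 over all probe sets, and the median size of the difference, whatever its sign, was 0.41 over the 10 and 0.15 over all. Because these are cultures measured in bulk, fewer cells with a transcript and less of it per cell cannot be told apart.

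**Figure D1:**
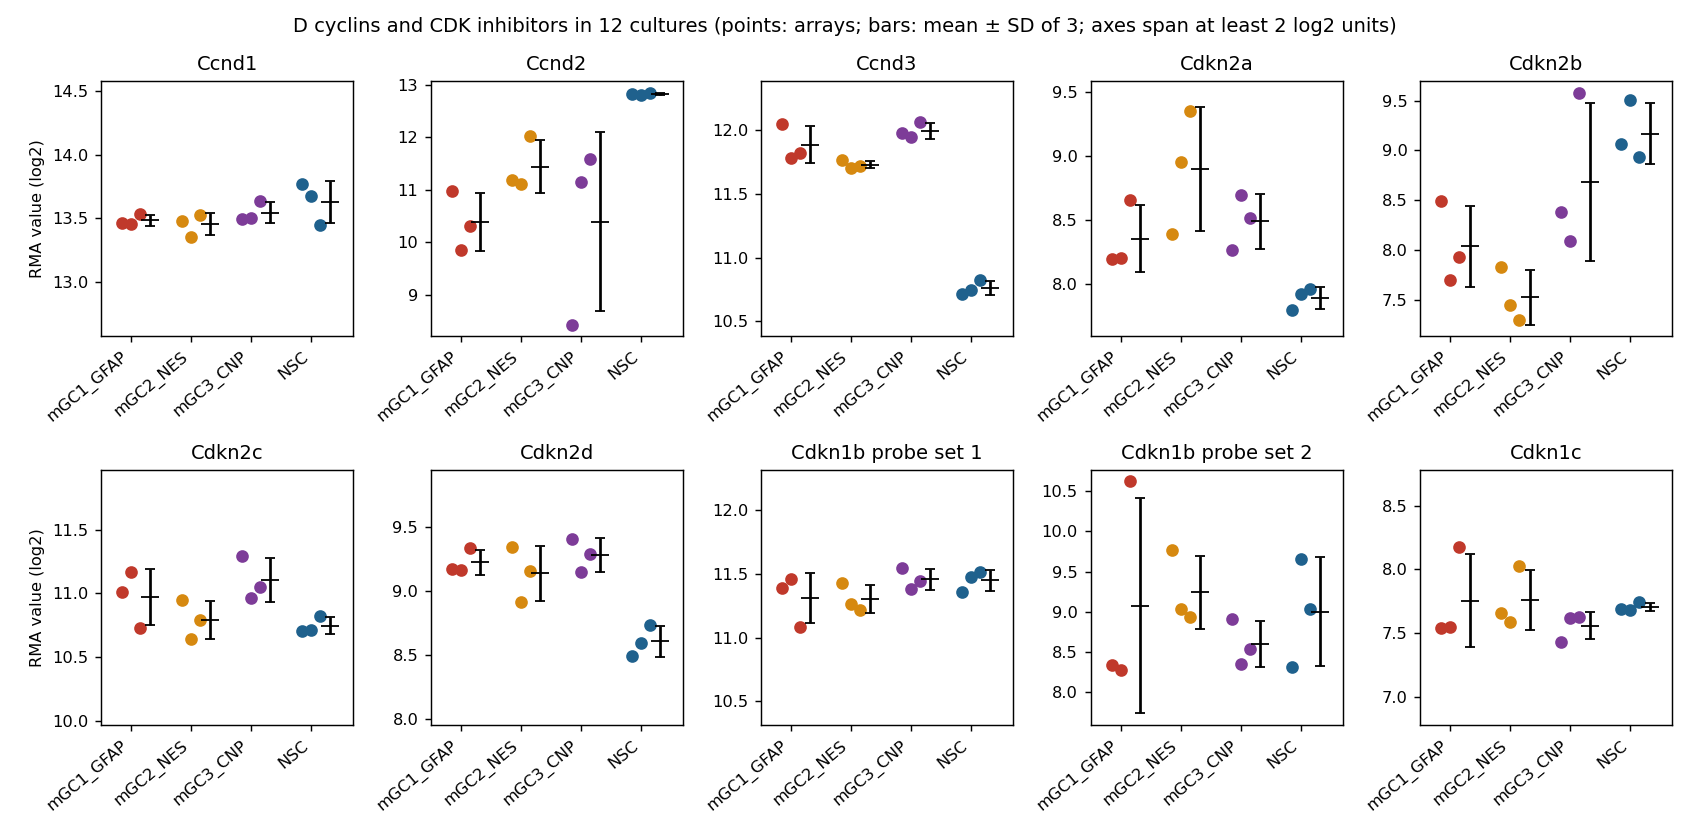
RMA values (log2) of the 10 probe sets in each culture, by group, with mean ± SD of the 3 cultures beside the points. Ccnd3, Cdkn2a and Cdkn2d lie above the NSC cultures in all 9 tumour cultures and Ccnd2 lies below them in all 9, whereas Cdkn2b overlaps through 1 mGC3_CNP culture.

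Among the D cyclins, Ccnd2 showed the largest difference and the largest spread. It read 10.97, 9.86 and 10.31 in mGC1_GFAP cultures, 11.18, 11.12 and 12.03 in mGC2_NES cultures and 8.43, 11.15 and 11.59 in mGC3_CNP cultures, against 12.82, 12.81 and 12.85 in the C/tv-a, N/tv-a and G/tv-a NSC cultures. The NSC cultures were almost identical and every tumour culture lay below them, mGC3_CNP replicate 1 furthest. The tumour minus NSC difference was -2.09 ± 0.53 (limma estimate ± SE), a 4.25-fold lower level (adjusted p = 0.00822). The span of Ccnd2 over the 9 tumour cultures, 3.60, was larger than that of 99.7% of all probe sets. Within groups of 3 cultures the span was 1.11 in mGC1_GFAP, 0.91 in mGC2_NES, 3.16 in mGC3_CNP and 0.04 in NSC cultures.

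Ccnd3 went the other way, with little spread. It read 12.05, 11.78 and 11.82 in mGC1_GFAP cultures, 11.76, 11.71 and 11.72 in mGC2_NES cultures and 11.98, 11.94 and 12.06 in mGC3_CNP cultures, against 10.72, 10.75 and 10.83 in NSC cultures, in the same order of lines as here throughout. Tumour and NSC cultures were thus well apart. The difference was 1.11 ± 0.06, or 2.15-fold (limma adjusted p = 1.05e-07), the smallest adjusted p among the members. Ccnd1, a D cyclin induced by growth factor signalling, averaged 13.50 ± 0.08 in tumour cultures (SD, n = 9) and 13.63 ± 0.17 in NSC cultures (SD, n = 3). Its groups overlapped and it was not called (-0.14 ± 0.07, 95% interval -0.29 to 0.02, limma adjusted p = 0.173). Without the G/tv-a NSC culture, which read lowest of the 3 at 13.45, the difference was -0.23 and was called (limma adjusted p = 0.0250, against 0.0250 to 0.580 over 17 alternatives).

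As Ccnd3 gave the smallest adjusted p, the 250 bases before each of its starts in RefSeq are shown. Capitals mark the GC box, GGGCGG or its complement, the site of Sp1-type factors, which 32.74% of all 32851 such windows hold. No match was found in them to 4 E2F words (TTTCCCGC, TTTCGCGC, TTTGCCGC and TTTGGCGC, in 1.86% of windows), to the E-box CACGTG (6.02%), to the cyclic AMP response element TGACGTCA (1.55%) or to TATAAA (12.37%), on either strand. The upstream window holds 2 GC boxes and the downstream window 1. The letters are on the plus strand of GRCm38.p6, at chr17:47504801-47505050 and chr17:47593217-47593466.
Ccnd3 upstream start: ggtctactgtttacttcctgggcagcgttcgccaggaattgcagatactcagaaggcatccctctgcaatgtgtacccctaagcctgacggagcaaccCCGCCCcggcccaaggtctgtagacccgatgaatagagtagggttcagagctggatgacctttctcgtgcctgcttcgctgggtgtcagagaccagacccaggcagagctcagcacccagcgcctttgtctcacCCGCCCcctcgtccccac
Ccnd3 downstream start: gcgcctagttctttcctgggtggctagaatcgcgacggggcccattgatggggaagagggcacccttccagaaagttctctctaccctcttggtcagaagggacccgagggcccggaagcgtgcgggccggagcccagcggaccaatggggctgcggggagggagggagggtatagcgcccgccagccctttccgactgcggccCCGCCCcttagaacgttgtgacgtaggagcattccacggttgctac

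The INK4 inhibitors split. Cdkn2b, whose product is induced by TGF-beta, read 8.49, 7.69 and 7.92 in mGC1_GFAP cultures, 7.83, 7.45 and 7.30 in mGC2_NES cultures and 8.39, 8.08 and 9.58 in mGC3_CNP cultures, against 9.07, 9.51 and 8.93 in NSC cultures. Of the tumour cultures, 8 lay below all NSC cultures, and mGC3_CNP replicate 3 lay above all of them. The difference was -1.09 ± 0.28, or 2.12-fold lower (limma adjusted p = 0.00889). Without the N/tv-a NSC culture it was -0.92 and no longer called (limma adjusted p = 0.0554, the highest of 17 alternatives, which began at 0.000401). The lowest reading, 7.30, is within the range of transcripts taken as absent.

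Cdkn2a encodes 2 proteins from separate first exons, Ink4a, which binds CDK4 and CDK6, and Arf, which binds the ubiquitin ligase Mdm2. It read 8.20, 8.20 and 8.66 in mGC1_GFAP cultures, 8.39, 8.96 and 9.35 in mGC2_NES cultures and 8.26, 8.69 and 8.51 in mGC3_CNP cultures, against 7.79, 7.92 and 7.96 in NSC cultures. All tumour cultures lay above all NSC cultures, by 0.69 ± 0.17 or 1.61-fold (limma adjusted p = 0.00793). Both sides carry the Arf-/- genotype, and the sources used here do not say which exons that allele lacks or which the probe set covers, so the reading is no check of the genotype and cannot be split into Ink4a and Arf.

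Cdkn2a and Cdkn2b lie side by side on chromosome 4 and moved in opposite directions, so the 250 bases before their RefSeq starts are shown, on the minus strand of GRCm38.p6. They lie at chr4:89294620-89294869 (the upstream Cdkn2a start, that of Arf in the known gene structure), chr4:89282193-89282442 (the downstream start, that of Ink4a) and chr4:89311033-89311282 (Cdkn2b). The same motifs were searched and capitals mark the matches. The upstream window of Cdkn2a holds 1 E2F word and 2 GC boxes, the downstream window none of the motifs, and that of Cdkn2b 1 cyclic AMP response element and no other motif.
Cdkn2a upstream start: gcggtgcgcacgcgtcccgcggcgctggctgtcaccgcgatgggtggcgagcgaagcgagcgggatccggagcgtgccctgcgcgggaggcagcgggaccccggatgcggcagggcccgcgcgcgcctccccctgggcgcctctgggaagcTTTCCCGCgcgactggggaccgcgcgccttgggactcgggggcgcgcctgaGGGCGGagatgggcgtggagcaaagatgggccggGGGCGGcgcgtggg
Cdkn2a downstream start: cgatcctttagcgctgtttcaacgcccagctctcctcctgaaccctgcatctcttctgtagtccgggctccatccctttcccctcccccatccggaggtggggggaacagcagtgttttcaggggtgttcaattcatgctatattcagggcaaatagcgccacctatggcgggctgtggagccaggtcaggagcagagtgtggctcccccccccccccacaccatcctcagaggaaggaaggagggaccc
Cdkn2b start: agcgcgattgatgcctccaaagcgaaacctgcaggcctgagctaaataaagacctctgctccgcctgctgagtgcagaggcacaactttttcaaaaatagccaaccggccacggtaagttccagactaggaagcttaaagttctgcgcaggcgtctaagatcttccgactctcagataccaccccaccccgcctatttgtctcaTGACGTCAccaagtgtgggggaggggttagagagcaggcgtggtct

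Cdkn2d, an INK4 gene found in neural progenitors and neurons, read 9.17, 9.17 and 9.34 in mGC1_GFAP cultures, 9.35, 8.91 and 9.16 in mGC2_NES cultures and 9.41, 9.15 and 9.29 in mGC3_CNP cultures, against 8.49, 8.60 and 8.73 in NSC cultures. The groups did not overlap, and the rise was 0.61 ± 0.09 or 1.53-fold (limma adjusted p = 2.89e-04). Cdkn2c, the remaining INK4 gene, averaged 10.96 ± 0.21 in tumour cultures (SD, n = 9) and 10.75 ± 0.07 in NSC cultures (SD, n = 3), with overlap. It was not called (0.21 ± 0.10, 95% interval -0.01 to 0.43, limma adjusted p = 0.134). It was called only without mGC1_GFAP replicate 3, at 0.25 (limma adjusted p = 0.0471, against 0.0471 to 0.304 over 17 alternatives). In all, 4 of the 10 probe sets had no overlap between tumour and NSC cultures (Ccnd2, Ccnd3, Cdkn2a and Cdkn2d), against 27.3% of all probe sets.

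The CIP/KIP members gave no call. Cdkn1b, which restrains cyclin E and A kinases, averaged 11.36 ± 0.14 in tumour cultures (SD, n = 9) and 11.45 ± 0.08 in NSC cultures (SD, n = 3) by probe set 1, a difference of -0.09 ± 0.08 (95% interval -0.27 to 0.09). Probe set 2 of the same gene spread more widely, over 2.34 against 0.46 in the tumour cultures. It read 8.34, 8.28 and 10.62 in mGC1_GFAP cultures, 9.76, 9.03 and 8.94 in mGC2_NES cultures and 8.91, 8.35 and 8.54 in mGC3_CNP cultures, against 8.32, 9.66 and 9.03 in NSC cultures. Its highest culture, mGC1_GFAP replicate 3, was the lowest of all 12 by probe set 1, at 11.09. The difference of probe set 2, -0.03 ± 0.45, had a 95% interval of -1.01 to 0.96. Cdkn1c, a CIP/KIP gene imprinted in mouse, stayed near the reading of absent transcripts, at 7.43 to 8.17 in tumour cultures and 7.68 to 7.74 in NSC cultures. Its difference was -0.01 ± 0.13 (95% interval -0.31 to 0.28).

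**Figure D2:**
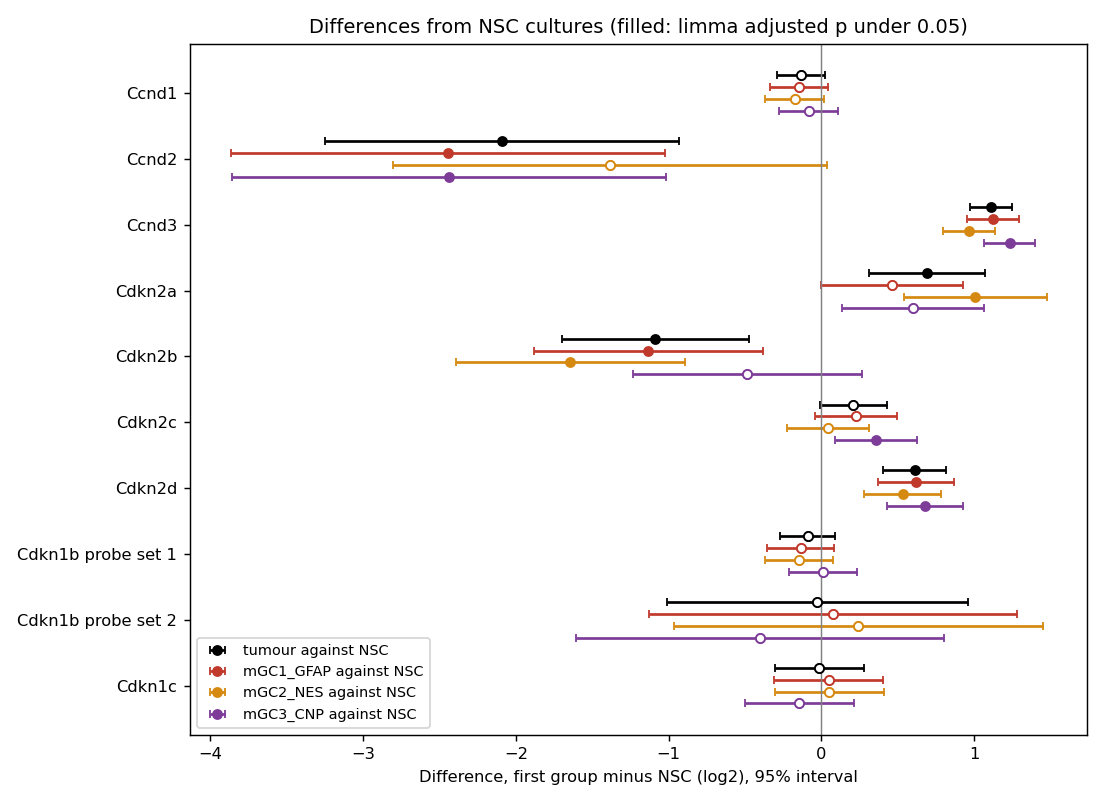
Estimated difference from NSC cultures (log2, first group minus NSC) with its 95% interval, for all tumour groups together and for each group. Filled points passed a limma adjusted p under 0.05: Ccnd3 and Cdkn2d were called in every group, Ccnd2 in mGC1_GFAP and mGC3_CNP, Cdkn2b in mGC1_GFAP and mGC2_NES, Cdkn2a in mGC2_NES and Cdkn2c in mGC3_CNP.

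Each origin was also set against the NSC cultures, and these comparisons share their 3 NSC arrays. In each of them 4 of the 10 probe sets were called, against 29.3% of all probe sets for mGC1_GFAP, 34.9% for mGC2_NES and 30.3% for mGC3_CNP. Cultures did not overlap with NSC for 5 probe sets in mGC1_GFAP (43.3% of all), 5 in mGC2_NES (46.0%) and 6 in mGC3_CNP (42.4%). Ccnd3 rose by 1.12 ± 0.08 in mGC1_GFAP, 0.97 ± 0.08 in mGC2_NES and 1.23 ± 0.08 in mGC3_CNP cultures. Cdkn2d rose by 0.62 ± 0.11, 0.53 ± 0.11 and 0.68 ± 0.11 in the same order. Both were called in each group whichever single array was left out. In an alternative that fitted each line apart, an origin's 3 cultures were set against the 1 NSC culture of its line. As that culture has no replicate, only the differences of this alternative are given. For Cdkn2d in mGC1_GFAP the difference was 0.49. Ccnd2 fell in mGC1_GFAP (-2.45 ± 0.65, limma adjusted p = 0.0138) and mGC3_CNP cultures (-2.44 ± 0.65, 0.0133), whereas in mGC2_NES cultures the difference was -1.38 ± 0.65 and was not called (0.127), although no culture of it overlapped with NSC. The fit shares 1 spread over all groups. Without mGC3_CNP replicate 1 mGC2_NES was called at the same -1.38 (limma adjusted p = 0.0033, within 0.00301 to 0.402 over its 18 alternatives) and the mGC3_CNP difference was -1.46, still called. Against the 1 NSC culture of the same line the Ccnd2 difference was -2.47 in mGC1_GFAP and -2.43 in mGC3_CNP. Without mGC1_GFAP replicate 2, the lowest of its group, the mGC1_GFAP difference was -2.19 and was not called (limma adjusted p = 0.0546).

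Cdkn2b fell by 1.13 ± 0.34 in mGC1_GFAP (limma adjusted p = 0.0266) and by 1.64 ± 0.34 in mGC2_NES cultures (0.00273), and the mGC3_CNP difference, -0.49 ± 0.34, was not called (0.340). The mGC1_GFAP call was lost without the C/tv-a NSC culture, without the N/tv-a one and without mGC1_GFAP replicate 2 or 3. The difference was -0.96 to -1.36 over all 12 arrays left out in turn, and -0.89 against the 1 NSC culture of the G/tv-a line. In mGC3_CNP the difference was -0.93 and was called without replicate 3 (limma adjusted p = 0.0178, within 0.0178 to 0.772 over its 18 alternatives). Cdkn2a rose by 1.01 ± 0.21 in mGC2_NES cultures (limma adjusted p = 0.00299), and its difference from the 1 NSC culture of that line was 0.98. It was not called in mGC1_GFAP (0.46 ± 0.21, adjusted p = 0.135) or mGC3_CNP cultures (0.60 ± 0.21, adjusted p = 0.0528). The mGC3_CNP difference of Cdkn2a passed when any of mGC1_GFAP replicate 3, mGC2_NES replicate 1, mGC2_NES replicate 3 or mGC3_CNP replicate 1 was left out, and the mGC1_GFAP difference without mGC2_NES replicate 1. Of the 3 groups, Cdkn2c was called in mGC3_CNP alone (0.36 ± 0.12, limma adjusted p = 0.0471), a call lost in 10 of its 18 alternatives. These include 7 of the 12 arrays left out in turn: each of the 3 NSC cultures, mGC1_GFAP replicate 1, mGC2_NES replicate 3, and mGC3_CNP replicates 1 and 3. Ccnd1 was called lower in mGC1_GFAP (-0.24) and mGC2_NES (-0.27) only without the G/tv-a NSC culture.

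Set against the NSC culture of their own line, which has no replicate, the tumour groups gave the same signs for these 5 genes. These values include the own-line differences already given above and are no separate check of them. Ccnd2 differed by -2.47 in the G/tv-a, -1.37 in the N/tv-a and -2.43 in the C/tv-a line, and Ccnd3 by 1.06, 0.98 and 1.28. Cdkn2a differed by 0.39, 0.98 and 0.70, Cdkn2d by 0.49, 0.54 and 0.79, and Cdkn2b by -0.89, -1.98 and -0.39, in the same order of lines. Every tumour culture lay on the same side of its line's NSC culture for these genes, except that Cdkn2b was higher in 1 of 3 mGC3_CNP cultures.

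Between tumour origins no member was called. By the moderated F test in limma over all tumour arrays 0 of 10 members passed, against 4.05% of all probe sets. At an unadjusted p under 0.05 Cdkn2b and Ccnd3 passed, 2 of 10, against 19.5% of all. None was called in the comparisons of pairs either, against 6.13% of all probe sets for mGC1_GFAP with mGC2_NES, 0.487% for mGC1_GFAP with mGC3_CNP and 0.459% for mGC2_NES with mGC3_CNP. At an unadjusted p under 0.05 these held 1, 0 and 3 members, against 20.6%, 12.9% and 13.3% of all. The 1 member was Cdkn2a, with a difference of -0.55 ± 0.23 for mGC1_GFAP against mGC2_NES (limma adjusted p = 0.222), and the 3 were Ccnd3, Cdkn2b and Cdkn2c. The cultures of mGC2_NES and mGC3_CNP did not overlap for 4 probe sets, against 18.2% of all. Ccnd3 was lower in mGC2_NES by 0.27 ± 0.08 (limma adjusted p = 0.202), Cdkn2b by 1.16 ± 0.36 (0.212) and Cdkn2c by 0.31 ± 0.13 (0.358), and Cdkn1b probe set 2 was 0.64 ± 0.55 higher in mGC2_NES (0.679). The interval of the Cdkn2b difference ran from -1.97 to -0.35. Between mGC1_GFAP and mGC2_NES cultures Ccnd2 (-1.06 ± 0.72) and Ccnd3 (0.16 ± 0.08) did not overlap, and neither was called. Between mGC1_GFAP and mGC3_CNP cultures every member overlapped, and the interval of the Ccnd2 difference ran from -1.63 to 1.60. The shares of all probe sets without overlap in these pairs with mGC1_GFAP are not reported.

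Some members varied together over the 9 tumour cultures. All 45 pairs of the 10 probe sets were examined, with exact two-sided permutation p-values adjusted over the 45. The permutations took no account of origin, so differences between origins enter these p-values. Correlations within origins were given no p. Cdkn2b and Ccnd3, which differed from NSC in opposite directions, rose and fell together among tumour cultures, with Pearson r = 0.89 (exact p = 1.38e-05, adjusted 6.2e-04) and Spearman rho = 0.97 (exact p = 1.65e-04, adjusted 0.00744). Without the 2 cultures farthest from the median of Cdkn2b r was 0.96, and after removing each origin's mean it was 0.76, on 3 cultures per origin. The Ccnd3 values behind it span only 0.36. Cdkn2c and Cdkn1b probe set 1 gave r = 0.88 (exact p = 0.00164, adjusted 0.0246) and rho = 0.90 (exact p = 0.00203, adjusted 0.0456), with r = 0.91 both without the 2 farthest cultures and within origins. Cdkn1b probe set 1 and Cdkn1c were inversely related (r = -0.89, exact permutation p = 0.00144, adjusted 0.0246), with r = -0.87 within origins. But rho was -0.68 (exact p = 0.0503, adjusted 0.333) and r without the 2 farthest cultures -0.52, so the relation was weaker by rank and without those 2. Cdkn2a and Cdkn2b, neighbours on the chromosome, gave r = -0.48 (exact p = 0.194, adjusted 0.417) and rho = -0.53 (exact p = 0.148, adjusted 0.369), and r = 0.08 without the 2 farthest cultures.

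**Figure D3:**
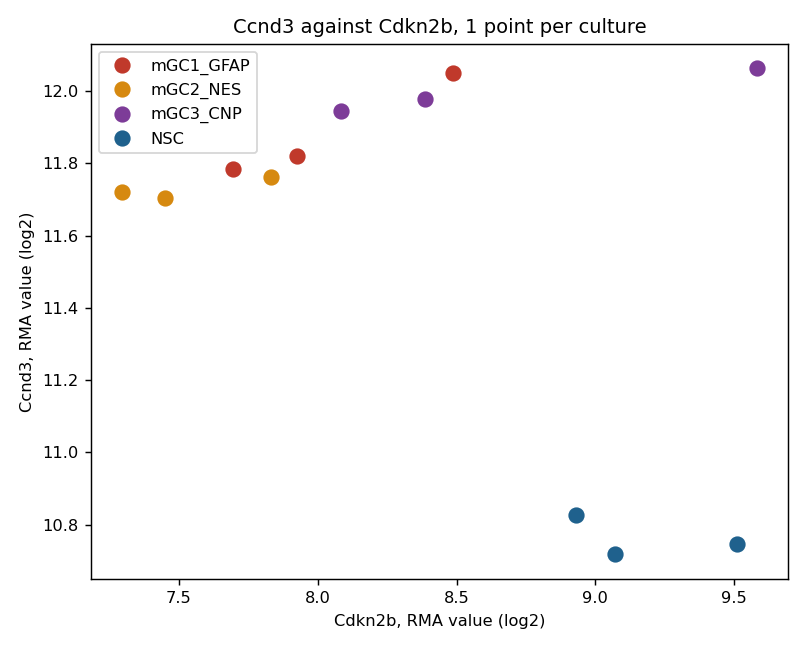
Ccnd3 against Cdkn2b (log2 RMA values), 1 point per culture. The 9 tumour cultures form a rising band (r = 0.89) at Ccnd3 values of 11.71 to 12.06, and the 3 NSC cultures lie apart at 10.72 to 10.83.

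Most genes of the kinases and E2F factors that the members act on were lower in tumour cultures. Of 22 probe sets for 20 genes of the G1 to S machinery, 16 fell, 1 rose and 5 did not pass. Over all probe sets 19.2% fell and 17.6% rose. The median difference was -0.38, against 0.01 over all probe sets. Cdk6, a partner of the D cyclins and target of INK4 proteins, averaged 6.93 ± 0.16 in tumour cultures (SD, n = 9) and 10.32 ± 0.15 in NSC cultures (SD, n = 3). The difference was -3.39 ± 0.10 (limma adjusted p = 4.91e-10), and its size is uncertain since the tumour mean is below 7.42. Cdk4, the other partner, read 13.59 ± 0.04 in tumour cultures (SD, n = 9) and 13.66 ± 0.02 in NSC cultures (SD, n = 3) and was not called (-0.07 ± 0.05). Also lower were the cyclin E gene Ccne1 (-1.10 ± 0.06), the repressor E2f6 (-1.07 ± 0.11), the E2F partner Tfdp2 (-1.05 ± 0.08), E2f5 (-0.83 ± 0.07), E2f1 (-0.69 ± 0.07) and Cdk2 (-0.23 ± 0.07). Rb1, the retinoblastoma gene, was not called (-0.15 ± 0.13), and Rbl2, a relative of it found in resting cells, was the 1 gene that rose (0.39 ± 0.08).

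**Figure D4:**
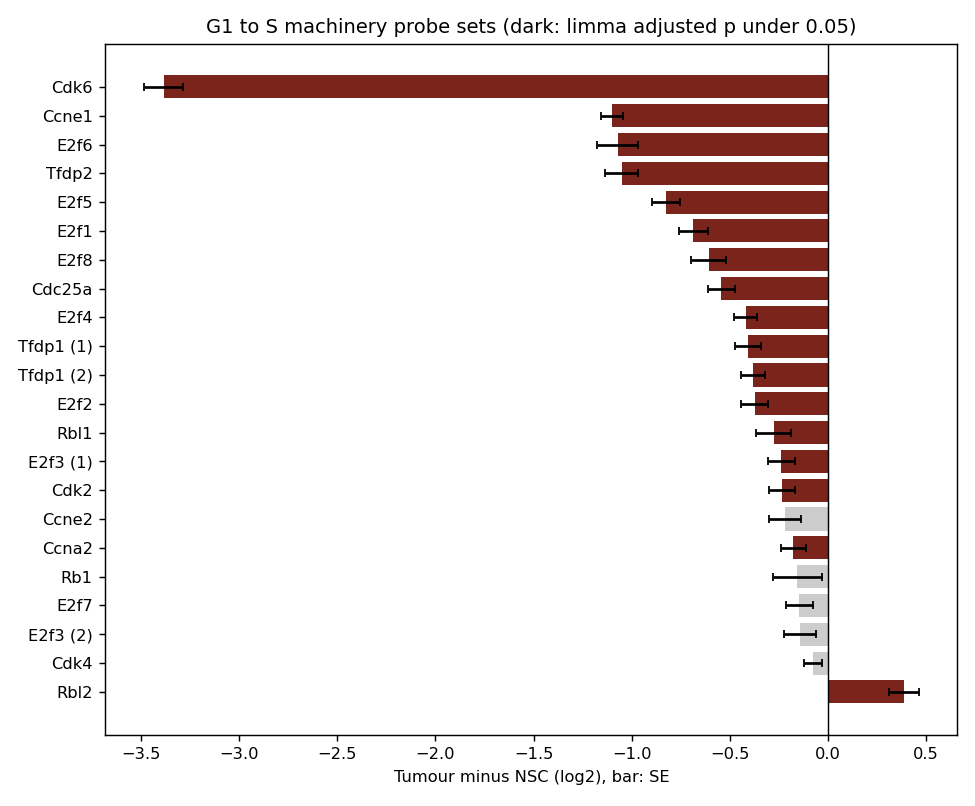
Tumour minus NSC difference (log2, bars with SE) for the 22 probe sets of the G1 to S machinery. Dark bars passed a limma adjusted p under 0.05, 16 of them lower and Rbl2 higher, with Cdk6 (-3.39) far below the rest.

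Of 15 probe sets for 13 measured proliferation genes, 8 fell, 0 rose and 7 did not pass in tumour against NSC cultures, against 19.2% of all probe sets that fell and 17.6% that rose, with a median of -0.24. The groups were uneven: mGC1_GFAP had 2 lower, 1 higher and a median of -0.05, mGC2_NES 12 lower, 0 higher and -0.50, and mGC3_CNP 8 lower, 0 higher and -0.22. The proliferation antigen gene Mki67 was not called (0.13 ± 0.12, with 12.26 ± 0.28 in tumour and 12.13 ± 0.14 in NSC cultures, SD, n = 9 and 3), while the replication genes Rrm2 (-1.18 ± 0.10), Mcm3 (-0.62 ± 0.07) and Mcm6 (-0.46 ± 0.09) fell. Also lower were Mcm2 (-0.44 ± 0.08), Mcm5 (-0.29 ± 0.06), both Pcna probe sets (-0.24 ± 0.05 each) and a Top2a probe set. That Top2a probe set averaged 4.96 in tumour and 5.58 in NSC cultures, below the reading of absent transcripts. The other Top2a probe set was not called (0.23 ± 0.09). Ccnb2 (-0.06 ± 0.11), Plk1 (-0.14 ± 0.11), Bub1 (-0.22 ± 0.09), Aurka (-0.16 ± 0.11) and Birc5 (-0.06 ± 0.09) were not called either. The part of cycling rate in the members' differences was not tested. Between origins, where no member was called, these lists did hold calls. In mGC1_GFAP against mGC2_NES cultures 9 of 15 proliferation probe sets and 6 of 22 of the G1 to S machinery were called higher and none lower, against 3.12% of all probe sets called higher. They included Mcm6 (0.75 ± 0.11), Ccne2 (0.55 ± 0.09) and E2f1 (0.50 ± 0.09).

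The genes beside Cdkn2a and Cdkn2b were read to place their opposite differences. Mtap, next to Cdkn2a and often lost with it in human tumours, read 10.24 to 11.23 in tumour cultures and 10.70 to 10.90 in NSC cultures and was not called (-0.04 ± 0.13). Dmrta1, next to Cdkn2b and encoding a transcription factor, averaged 10.36 ± 1.00 in tumour cultures (SD, n = 9) and 7.17 ± 0.54 in NSC cultures (SD, n = 3), a rise of 3.19 ± 0.37 (limma adjusted p = 3.78e-05) whose size is uncertain since the NSC mean is below 7.42. Of the 10 nearest genes with a probe set, 5 on each side, 2 rose (Dmrta1 and Izumo3), 2 fell (Elavl2, -1.09 ± 0.15, and Tusc1, -0.29 ± 0.07) and 6 did not pass. Over all probe sets 17.6% rose and 19.2% fell, so these counts are near the shares over the whole array. Izumo3 read below 7.42 on both sides.

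**Figure D5:**
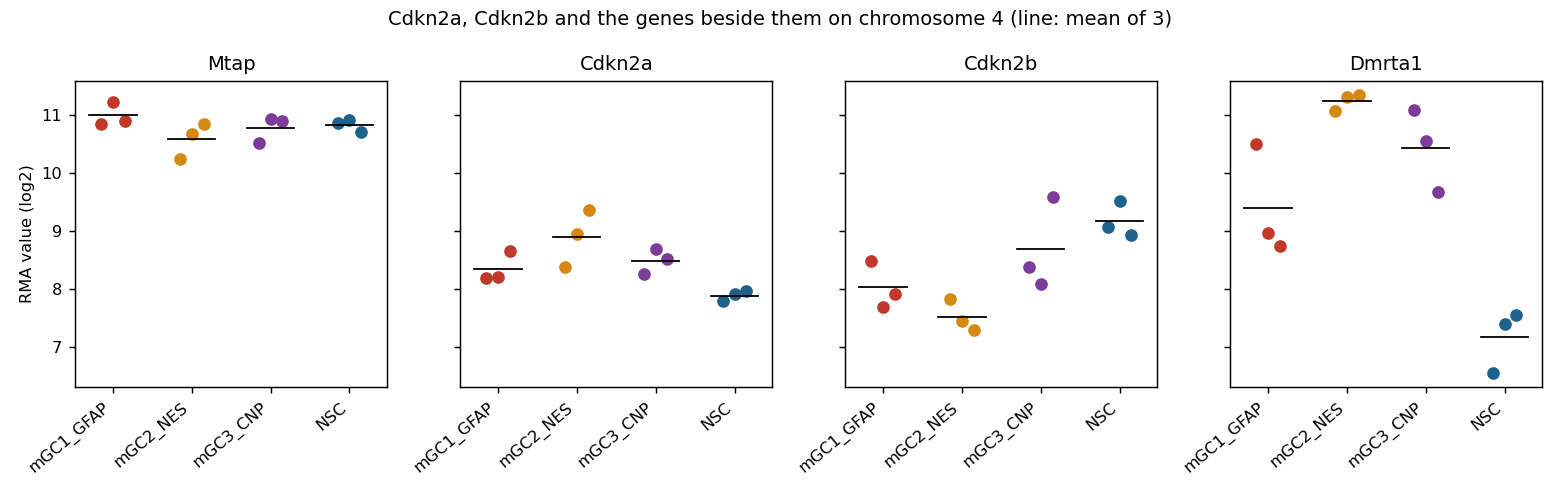
RMA values (log2) of Mtap, Cdkn2a, Cdkn2b and Dmrta1, in their order on chromosome 4, by group, with a line at the mean of 3. Mtap overlaps between tumour and NSC cultures, Cdkn2a and Dmrta1 are higher in all tumour cultures, and Cdkn2b is lower in 8 of 9.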

How the data were processed

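Each of 12 arrays gave 1 log2 value per probe set. The authors summarised them by RMA, using Affymetrix Expression Console, as the submitters' processing notes record. RMA removes background and gives every array the same distribution, which hides a shift common to most genes. The deposited log2 values, as the authors made them, were taken without further scaling. Of 28270 probe sets, the 21780 with exactly 1 symbol in the platform annotation were tested. Symbols come from the platform annotation and chromosomes from the RefSeq table of GRCm38.p6, whose current symbols and synonyms also served to find genes.

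Tests used limma 3.58.1 in R 4.3.3 (lmFit, eBayes), two-sided, adjusted by Benjamini-Hochberg over those 21780, with a call at an adjusted p under 0.05. Comparisons with NSC were fitted on 12 arrays in 4 groups, those between origins on the 9 tumour arrays. Correlations over tumour cultures used exact permutation tests (scipy 1.17.1, Python 3.11.15). The fit was tested on simulated data. Alternatives were leaving out each array, a trended robust prior, a filter on low values, median-centred arrays and all probe sets. Others were fewer or more arrays in the fit, and mouse line or replicate number as a block. For a single origin against NSC, the line alternative used no block but compared the tumour cultures with the 1 NSC culture of their line. NSC cultures are named by line. In deviations from group means, same-numbered arrays of mGC2_NES and mGC3_CNP correlated at 0.132, 0.165 and 0.254, which counts them as paired by a bound of 0.1. The differences given between these groups nevertheless come from the fit without pairing, and the replicate block was an alternative. A differently numbered pair, mGC1_GFAP replicate 1 and mGC3_CNP replicate 3, also passed the bound at 0.134. With mGC1_GFAP the 6 same-numbered correlations ran from 0.0022 to 0.254, 2 of them over 0.1, so its numbers were not taken as pairs. Arrays hold no read depth, and their number limits the precision.

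The members, pathway lists and tests were chosen with earlier results of these data known. Members were named whatever their value. By rule up to 6 called genes per list were named by size of difference, with Cdk4, Cdk6, Cdk2, Rb1, E2f1, Ccne1, Bmi1 and Mki67 always. Some other genes of the lists were named beside them. Motif words were picked after the members' values were known. The 250-base windows are RefSeq's, for 6 of the 9 measured genes (Ccnd1, Ccnd2 and Cdkn1c had none).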

Additional observations from a re-analysis of the deposited data

How the results depend on the processing

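The count of called members for tumour against NSC cultures (5) stayed within 1.5 times, at 4 to 6 over all alternatives. For mGC1_GFAP against NSC it was 4, and ranged from 2 (without mGC1_GFAP replicate 2) to 5 with single arrays left out. Counts of calls against the 1 NSC culture of each line are not given, as that culture has no replicate. No alternative called a member between origins. With the replicate block 0 members were called in any comparison between origins, and it changed no call of a member.

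The differences that changed sign under an alternative were all uncalled, and the cause was not tested. For tumour against NSC the difference turned sign with single arrays left out for Cdkn1b probe set 2 (-0.37 to 0.30) and Cdkn1c (-0.085 to 0.021). For mGC1_GFAP against NSC it did for Cdkn1b probe set 2 (-0.70 to 0.48) and Cdkn1c (-0.16 to 0.16). For mGC2_NES against NSC it did for Cdkn1b probe set 2 (-0.10 to 0.57), Cdkn1c (-0.082 to 0.14) and Cdkn2c (-0.031 to 0.12). For mGC3_CNP against NSC it did for Cdkn1b probe set 1 (-0.037 to 0.046). For mGC1_GFAP against mGC2_NES it did for Ccnd1 (-0.020 to 0.066), Cdkn1b probe set 1 (-0.062 to 0.12), Cdkn1b probe set 2 (-0.94 to 0.23), Cdkn1c (-0.21 to 0.13) and Cdkn2d (-0.025 to 0.19). For mGC1_GFAP against mGC3_CNP it did for Ccnd2 (-0.99 to 0.59), Cdkn1b probe set 2 (-0.29 to 0.88), Cdkn1c (-0.016 to 0.30) and Cdkn2d (-0.13 to 0.0054). With arrays centred on their median, Cdkn1b probe set 1 was -0.034 in mGC3_CNP against NSC, Cdkn1c 0.0083 in mGC1_GFAP against mGC2_NES and Ccnd2 0.015 in mGC1_GFAP against mGC3_CNP. Against the 1 NSC culture of their own line, Ccnd1 was 0.038 in mGC1_GFAP, and Cdkn1b probe set 2 was -0.42 in mGC2_NES and 0.28 in mGC3_CNP.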

Other observations

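Genes of the turnover and control of the members were read in tumour against NSC cultures, where 17.6% of all probe sets rose and 19.2% fell. Of 14 probe sets for 12 genes of protein turnover, 3 rose, 5 fell and 6 did not pass. Fbxo31 rose by 0.61 ± 0.09 and 0.59 ± 0.07 by its 2 probe sets and Fbxo4 by 0.51 ± 0.09, both encoding F-box proteins reported to direct breakdown of cyclin D1. Fbxw7, which targets cyclin E, fell by 0.57 ± 0.07 by 1 of 2 probe sets, Dtl by 0.46 ± 0.07, Cul1 by 0.38 ± 0.07 and Skp2, which targets the Cdkn1b protein, by 0.36 ± 0.08. The other Fbxw7 probe set averaged 5.12 in tumour and 5.22 in NSC cultures, below the reading of absent transcripts. Of 17 probe sets for 16 regulators of Cdkn2a and Cdkn2b, 5 rose, 5 fell and 7 did not pass. Ets2 (0.97 ± 0.10), the repressor Tbx2 (0.73 ± 0.13) and the Polycomb genes Cbx7 (0.67 ± 0.08) and Cbx8 (0.42 ± 0.08) rose. Ets1 (-0.78 ± 0.10) and the Polycomb gene Rnf2 (-0.37 ± 0.06) fell, and the Polycomb gene Bmi1 was not called (-0.04 ± 0.10). Other Polycomb genes of the list also went both ways. Ezh2 averaged 11.86 in tumour and 12.21 in NSC cultures, and Ring1 9.18 and 8.98. Of 15 regulators of Cdkn1a, Cdkn1b and the D cyclins, 6 rose, 5 fell and 4 did not pass. Fos (1.52 ± 0.18) and Myc (0.60 ± 0.07) rose, and Smad3 (-0.69 ± 0.08), which carries TGF-beta signals, Foxo1 (-0.64 ± 0.18), Klf6 (-0.57 ± 0.12) and Klf4 (-0.55 ± 0.09) fell. For Klf4 the size is uncertain since its tumour mean, 7.36, is below 7.42. The other FOXO genes of the list averaged higher in tumour than in NSC cultures, Foxo3 at 9.83 and 9.57 and Foxo4 at 8.67 and 8.14.

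For the 4 probe sets that spanned at least 1 log2 unit over the 9 tumour cultures, the genes most like them were sought among the 1594 probe sets with at least that span, leaving out members and predicted genes. Over these 9 arrays, which share 3 origins, Ccnd2 ran most like Elavl4 (Pearson r = 0.93), Tcn2 (0.92) and Rhbdf1 (0.91), and Cdkn2b most like Tent5a (0.94), Tacr3 (0.90) and Kcnk2 (0.88). Cdkn2a ran most like Unc5d (0.93), Fgf1 (0.92) and Cpt1a (0.88), and Cdkn1b probe set 2 most like Fstl1 (0.86), Slc22a29 (0.85) and Rnu3a (0.83). These are the highest of 1594 over only 9 arrays, a choice that favours high r, and none was tested.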
